A study of Mus musculus with 3 samples.

Results

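Nasp encodes a histone chaperone, and its transcript was chosen here as 1 gene of the 21757 protein-coding genes in the GENCODE vM39 annotation of the mouse. It is followed exon by exon, intron by intron and, within its long testis exon, in stretches of 50 nt. The data came from individual-nucleotide crosslinking and immunoprecipitation (iCLIP) of the splicing factor Tra2β, with 3 biological replicate libraries from wild type adult mouse testes and a polyclonal anti-Tra2b antibody. All 3 libraries belong to the same group, so there was no second genotype, treatment or input library, and each library was used as its own control. The labels give the cell type as mixed and the material as minced whole testes, while the study's methods describe the irradiated material as germ cells set free by mincing, and no sort is described. Each value is a crosslink, meaning the nucleotide next to which a unique cDNA stopped.

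NASP binds the linker histone H1 and the core histones H3 and H4, keeps a pool of them and passes them on for assembly into chromatin. The gene makes a long testis form, tNASP, and a shorter somatic form, sNASP, which differ by the cassette exon called Nasp-T. Tra2β binds purine-rich RNA around GAA and activates the splicing of exons that hold such sequences, and Nasp-T is a known target exon. A crosslink shows where the protein touched RNA, and not whether the exon was then spliced in.

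Nasp lies on the minus strand of chromosome 4 (GRCm39, 116458246 to 116485215). Its canonical transcript, Nasp-210, has 15 exons with 3587 nt in all and 14 introns with 23353 nt. Nasp-T is exon 6, lies wholly within the coding sequence and is 975 nt long, which is 27.2% of the exonic length. Of the 11 annotated protein-coding transcripts, 6 hold the whole of Nasp-T, 2 hold part of it and 3 lack it. The 3′ end of the gene overlaps Ccdc17 on the opposite strand, and only crosslinks on the strand of Nasp were counted. The other 14 exons are called the shared exons here because both forms can use them.

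The sequences on which the results turn are given next, all from GRCm39, on the strand of Nasp and 5′ to 3′. In the first 5 lines the capitals mark every GAA. They show the stretch of 41 nt of Nasp-T with the most crosslinks, the stretch of the same length with the fewest, and exons 5 and 7, which flank Nasp-T and were called denser than the rest of the transcript. Exon 9 is given as well. It had no crosslink in replicate 2 but 8 and 13 in replicates 1 and 3, and it was not called.
Nasp-T densest 41 nt, chr4:116468426-116468466: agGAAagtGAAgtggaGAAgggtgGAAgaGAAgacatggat
Nasp-T sparsest 41 nt, chr4:116467869-116467909: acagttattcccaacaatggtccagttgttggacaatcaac
exon 5, chr4:116469169-116469278: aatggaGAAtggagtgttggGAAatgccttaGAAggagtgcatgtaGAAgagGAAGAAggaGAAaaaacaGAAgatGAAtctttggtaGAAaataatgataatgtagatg
exon 7, chr4:116462881-116462960: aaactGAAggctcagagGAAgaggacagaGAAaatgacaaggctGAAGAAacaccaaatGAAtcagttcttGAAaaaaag
exon 9, chr4:116461938-116462011: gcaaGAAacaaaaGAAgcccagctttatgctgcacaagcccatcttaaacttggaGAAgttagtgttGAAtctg
The splice sites of Nasp-T are shown with 20 nt on each side, and here the capitals mark the exon.
Nasp-T acceptor, chr4:116468555-116468594: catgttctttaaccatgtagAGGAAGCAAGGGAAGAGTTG
Nasp-T donor, chr4:116467580-116467619: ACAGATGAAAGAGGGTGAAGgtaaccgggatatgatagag
Both ends of the exon hold GAA within its outermost 20 nt.

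The 3 libraries held 348033, 619571 and 488719 crosslinks, so that the limit allowed by a count of 0 (3 crosslinks) lay between 4.84 and 8.62 crosslinks per 1000000 crosslinks of the library (CPM). Replicate 2 stood apart although it was the deepest, with 24.98% of its crosslinks in protein-coding genes falling in canonical exons against 40.9% in replicate 1 and 53.3% in replicate 3. All 27 genes of the marker lists for spermatogonia, spermatocytes, spermatids, Sertoli cells and Leydig cells had crosslinks. The spermatid markers summed to 1210, 326 and 1522 CPM in replicates 1, 2 and 3, and the spermatocyte markers to 1112, 965 and 1651. The spermatogonial markers summed to 86.2, 96.8 and 57.3 CPM and were thus highest in replicate 2. The Sertoli cell markers summed to 158, 111 and 123 CPM and the Leydig cell markers to 115, 74.2 and 115.

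Nasp was among the genes most heavily crosslinked in each library. It held 433 crosslinks in replicate 1, 259 in replicate 2 and 934 in replicate 3, of which 383, 215 and 850 lay in canonical exons. Scaled to library size this came to 1244, 418 and 1911 CPM, with a mean of 1191 ± 748 (SD, n = 3). By this mean over the whole gene Nasp ranked 13th of the 21757 protein-coding genes, and by mean exonic CPM per kb 17th. By mean exonic CPM it ranked 5th, and its rank by exonic CPM was 6, 5 and 6 in the 3 libraries. The low level in replicate 2 thus went with a rank like that in the other libraries. The spermatid, spermatocyte, Sertoli cell and Leydig cell markers were also lowest in replicate 2, and the spermatogonial markers were highest there. The part of these cell types in the level of Nasp was not tested. In these mixed cells, fewer cells of a type and less RNA per cell cannot be told apart, and more crosslinks can reflect more transcript as well as more binding, since no RNA level was used here.

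**Figure D1:**
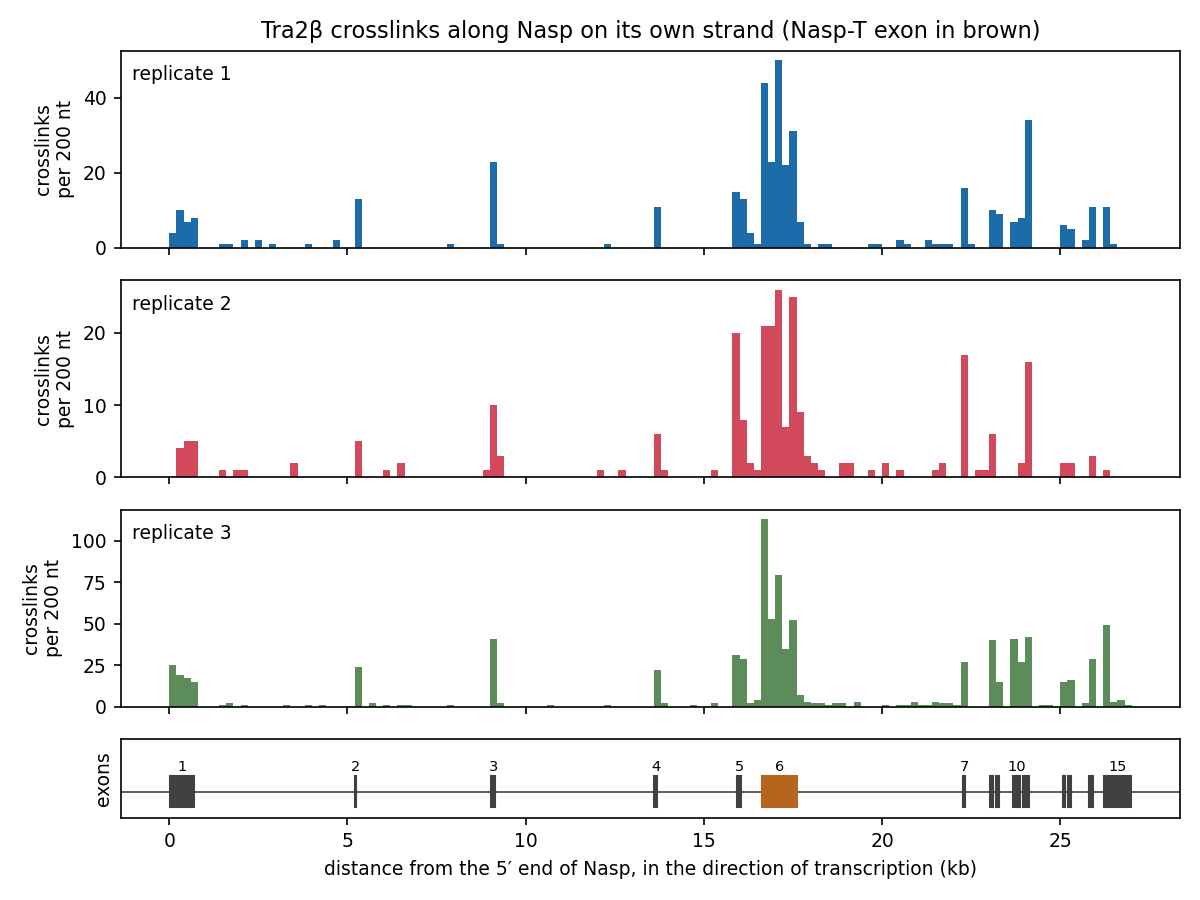
Crosslinks on the strand of Nasp in steps of 200 nt (vertical axes, with a scale of their own for each library) against the distance from the 5′ end of the gene in kb, with the exons drawn as boxes and numbered in part. The peaks lie over exons in all 3 libraries, and the tallest group lies over the Nasp-T exon (exon 6), which held 172, 105 and 336 crosslinks in replicates 1, 2 and 3.

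Crosslinks in Nasp were concentrated in exons. Exons held 107, 59.9 and 237 crosslinks per kb in replicates 1, 2 and 3, and introns held 2.14, 1.88 and 3.60. The log2 ratio of the densities was 5.64, 4.99 and 6.04, a mean of 5.56 ± 0.53 (SD, n = 3), and it was higher in exons in 3 of 3 libraries (edgeR quasi-likelihood test, adjusted p = 3.06e-05). Most genes with enough crosslinks showed the same direction, since 80.4% of the 5067 genes tested were called higher in exons, with a median log2 ratio of 2.56. The share of the crosslinks of Nasp that were exonic was 88.5% in replicate 1, 83.0% in replicate 2 and 91.0% in replicate 3. Replicate 2 was again the lowest, but for Nasp the gap was smaller than over all protein-coding genes.

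Within the mature transcript, the Nasp-T exon carried the most crosslinks of any exon, and it was denser than all the other exons combined. It held 172, 105 and 336 crosslinks in replicates 1, 2 and 3, against 211, 110 and 514 in the 14 shared exons. Its share of the exonic crosslinks was 44.9%, 48.8% and 39.5%, each above its 27.2% share of the length. The 95% Wilson intervals of these shares ran from 40.0% to 49.9%, from 42.2% to 55.5% and from 36.3% to 42.9% and cover counting error alone. The density was 1.08 higher on the log2 scale than that of the other exons (edgeR quasi-likelihood test, adjusted p = 0.00323), with library values of 1.12, 1.34 and 0.81 and a mean of 1.09 ± 0.27 (SD, n = 3).

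Against the internal exons alone, however, the Nasp-T exon did not differ beyond the spread. Exons 1 and 15, which hold the 5′ and 3′ untranslated regions, made up most of the gap. With internal exons as the reference the log2 difference was 0.29 (edgeR quasi-likelihood test, adjusted p = 0.696). The 12 other internal exons together held 170, 95 and 383 crosslinks in replicates 1, 2 and 3. Their density was 140.5, 78.5 and 317 crosslinks per kb, against 176, 108 and 345 in the Nasp-T exon. The Nasp-T exon was thus the higher in 3 of 3 libraries by a margin that the test did not call. In number, the Nasp-T exon (44.4% ± 4.7 of exonic crosslinks, SD, n = 3) and the 12 other internal exons (44.5% ± 0.5) held near equal shares. The call against all other exons was lost without replicate 1 (log2 1.07, adjusted p = 0.415) and without replicate 3 (log2 1.24, adjusted p = 0.159) and was kept without replicate 2 (log2 0.95, adjusted p = 3.76e-06; all edgeR).

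**Figure D2:**
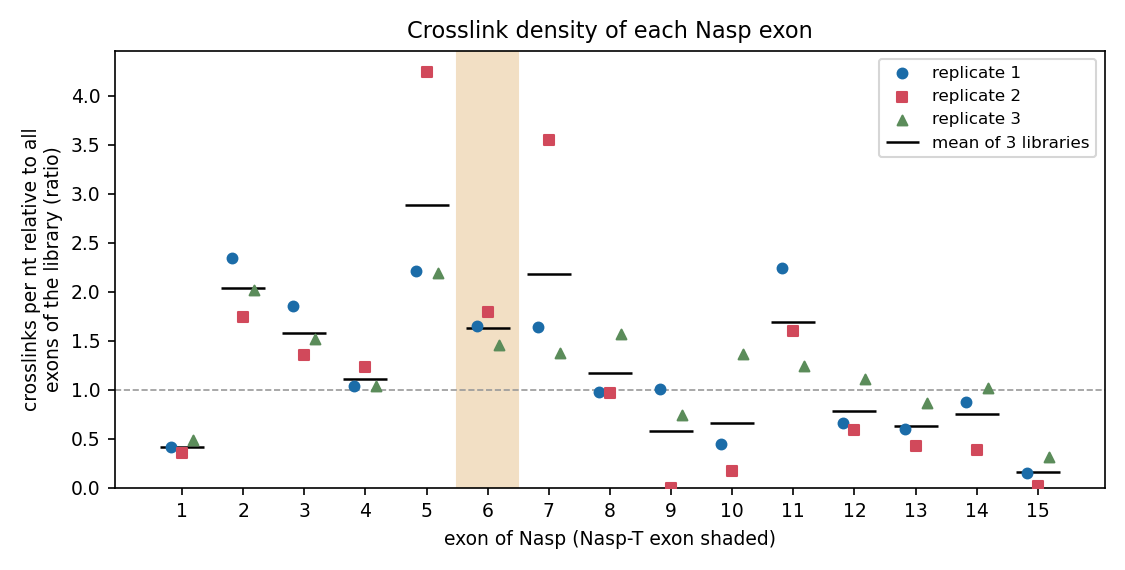
Crosslinks per nucleotide in each of the 15 Nasp exons as a ratio to the density over all exons in the same library (vertical axis), with symbols for the 3 libraries and a black bar for their mean; the dashed line marks a ratio of 1. Exon 5 has the highest mean at 2.88, the Nasp-T exon (shaded) lies at 1.63, and exons 1 and 15 lie at 0.42 and 0.16.

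Per nucleotide, Nasp-T was not the densest exon. When each library was scaled to its own mean over the transcript, exon 5 was the densest at 2.88 ± 1.18 times the mean (SD, n = 3), followed by exon 7 at 2.19 ± 1.19, exon 2 at 2.03 ± 0.30, exon 11 at 1.69 ± 0.51 and Nasp-T at 1.63 ± 0.17. Exon 3 followed at 1.58 ± 0.26. Each exon in this order overlapped the next within their SDs, so the order among these 6 exons is not settled. Nasp-T ranked 5, 3 and 5 in the 3 libraries and had the smallest SD of the 6.

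Of the 15 exons, 3 were called higher than the rest of the transcript, namely exons 5, 6 and 7, which are Nasp-T and its neighbours on both sides. In the same test, 5.65% of the 17630 exons of all genes were called higher, and 7.52% of the 12140 internal exons. Exon 5 held 26, 28 and 57 crosslinks in 110 nt (log2 1.51, edgeR adjusted p = 0.000103). With internal exons alone as the reference it was not called (log2 0.96, edgeR adjusted p = 0.0611). Exon 7 held 14, 17 and 26 crosslinks in 80 nt (log2 0.99, edgeR adjusted p = 0.0434). Replicate 2 was relatively high in both, with 20.9% of its exonic crosslinks in these 2 exons against 10.4% and 9.76% in replicates 1 and 3. Without replicate 2 the call for exon 7 was lost (log2 0.57, adjusted p = 0.198), and that for exon 5 was kept (log2 1.19, adjusted p = 1.70e-05; both edgeR). The call for exon 7 lay near the threshold and was also lost without replicate 1 or 3, by DESeq2 (adjusted p = 0.184), by the exact binomial test (largest adjusted p = 0.428), with no filter (adjusted p = 0.116), with internal exons as the reference (adjusted p = 0.628), with exon ends left out (adjusted p = 0.058) and with each position counted 1 time (adjusted p = 0.0625).

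Exons 1 and 15 were called lower, where 8.3% of all exons tested were. Exon 1 held 29, 14 and 76 crosslinks in 657 nt, of which 59 nt are coding (log2 -1.41, edgeR adjusted p = 0.00032). Exon 15 held 12, 1 and 55 crosslinks in 745 nt, of which 75 nt are coding (log2 -2.78, edgeR adjusted p = 1.91e-12). First and last exons were often low over all genes, with 18.0% of 2045 first exons and 27.8% of 3445 last exons called lower against 1.11% of 12140 internal exons. Without replicate 1 exon 15 was the only exon of Nasp that was called, and without replicate 3 exons 5 and 15 were. Within exon 15 the crosslinks lay near its start. The 185 nt that short and long 3′ ends have in common held 11, 1 and 47 of them, and the 560 nt found in the long form alone held 1, 0 and 8.

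The other 10 exons were not called. Exons 2, 3 and 11 had positive log2 values in the fit, of 1.06, 0.69 and 0.76. Exon 10 held 9, 2 and 61 crosslinks in 189 nt. Exon 9 had 8, 0 and 13 crosslinks, and the 0 of 215 exonic crosslinks in replicate 2 allows a share of up to 1.40%. The exons downstream of Nasp-T were the sparser side of the transcript. Exons 7 to 14 held 117, 54.7 and 283 crosslinks per kb in replicates 1, 2 and 3, against 197, 137 and 400 in exons 2 to 5. The upstream side was higher in 3 of 3 libraries, a difference that was not tested. Bases with a copy elsewhere in the genome, described below, were not taken out of these densities.

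The shared exons can be read without Nasp-T, as in the somatic form. With the longest internal exon of every transcript left out, a choice added after the data had been seen, exons 2, 3, 5, 7 and 11 were called higher and exons 1 and 15 lower. Over all genes 5.47% of 15252 exons were called higher in that fit and 7.96% lower. Exon 5 remained the densest (log2 1.99, edgeR adjusted p = 3.63e-07). Exon 7 had a log2 value of 1.42 (edgeR adjusted p = 0.00238). The reference in that fit still held the sparse exons 1 and 15. With internal exons alone as the reference, where Nasp-T is kept, none of the exons called higher here was called. The edgeR adjusted p then ran from 0.0611 for exon 5 to 0.915 for exon 3. The shared coding sequence carried 47.0% ± 0.9 (SD, n = 3) of the exonic crosslinks, near the 44.4% ± 4.7 of Nasp-T, in 1344 nt against 975 nt. Crosslinks in shared exons cannot be assigned to the testis or the somatic form, and the level of inclusion of Nasp-T was not measured here.

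The genome holds spliced copies of the shared exons but none of Nasp-T, and a cDNA that matches several places may be left out when reads are aligned. A search of GRCm39 with each exon (at least 85% identity) found copies of exons 2 to 5 and 7 to 15 joined in order on chromosome 14 (74534868 to 74536360), of 5 exons on chromosome 6 (63137260 to 63138060) and of parts of 2 exons on chromosome 8. Exon 6 had no match. The copies themselves held 1, 1 and 0 crosslinks on chromosome 14, 0, 0 and 2 on chromosome 6 and none on chromosome 8. Of the bases in shared exons, 6.20% were followed by 30 nt with an exact copy, and 16.5% when 1 mismatch was allowed, against 0% in Nasp-T. In the shared internal exons, bases with an exact copy held 56.7, 21.3 and 163 crosslinks per kb and the remaining bases 152, 86.1 and 337, so bases with a copy were the sparser in 3 of 3 libraries. The share of bases with an exact copy ran from 0% to 9.91% in exons 2 to 5 and from 0% to 46.5% in exons 7 to 14. The part of these copies in the lower density of exons 7 to 14 was not tested. Counting only bases without an exact copy, Nasp-T was denser than all other exons by a log2 value of 1.06 ± 0.26 and than the other internal exons by 0.19 ± 0.15 (SD, n = 3). With 1 mismatch allowed these were 1.10 ± 0.24 and 0.071 ± 0.106. Against the other internal exons Nasp-T was then the higher in replicates 1 and 2 (log2 0.11 and 0.16) and not in replicate 3 (-0.048). The cDNA lengths are not in the files, and 30 nt was a choice made after the data had been seen.

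Crosslinks were spread over the whole of Nasp-T rather than held by a few nucleotides. They fell on 353 of its 975 nt, or 36.2%. Of these nt, 256 were crosslinked in 1 library, 83 in 2 and 14 in all 3. The nucleotides with the most cDNAs were nt 3 and nt 33 of the exon, with 11 each in total, but neither had any in replicate 2. The nucleotides with 7 or 6 crosslinks that were seen in all 3 libraries were nt 507 with 1, 2 and 4, nt 916 with 4, 1 and 2, nt 147 with 2, 2 and 2, and nt 884 with 1, 1 and 4.

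Over 20 bins along Nasp-T, the crosslinks rose above the rest of the exon in bin 3 and fell below it in bins 13 and 14. Bin 3 (nt 101 to 150) held 21, 13 and 43 crosslinks, or 12.5% ± 0.3 of the exon (SD, n = 3) in 5.13% of its length (log2 1.40, edgeR adjusted p = 0.0112). It was called higher where 2.97% of the 5617 bins of long coding exons were. Bin 13 (nt 601 to 650) held 3, 2 and 3 crosslinks (log2 -1.98, edgeR adjusted p = 0.0299), and bin 14 (nt 651 to 700) held 4, 1 and 2 (log2 -2.18, edgeR adjusted p = 0.0163). They were called lower where 1.83% of such bins were. The 17 other bins were not called. None of the 3 calls held without replicate 1, without replicate 3 or by the exact binomial test. Without replicate 2 all of them held, with edgeR adjusted p = 2.13e-05 for bin 3 and 0.00496 for bins 13 and 14. By DESeq2 bin 3 alone passed (adjusted p = 0.00177).

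The exon can be described from its acceptor to its donor. The first 150 nt carried 25.1% ± 6.8 of its crosslinks in 15.4% of its length. Within them bin 1 was uneven between libraries, with 18, 2 and 49 crosslinks, and replicate 2 was the low one. The stretch from nt 601 to 800 carried 7.02% ± 0.99 in 20.5% of the length, and all of its 4 bins held fewer crosslinks than their length would give in each library. The last 75 nt next to the donor carried 13.2% ± 6.3 in 7.69% of the length, with 21, 21 and 25 crosslinks (all SD, n = 3). These stretches were set after the bins had been seen and have no test.

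**Figure D3:**
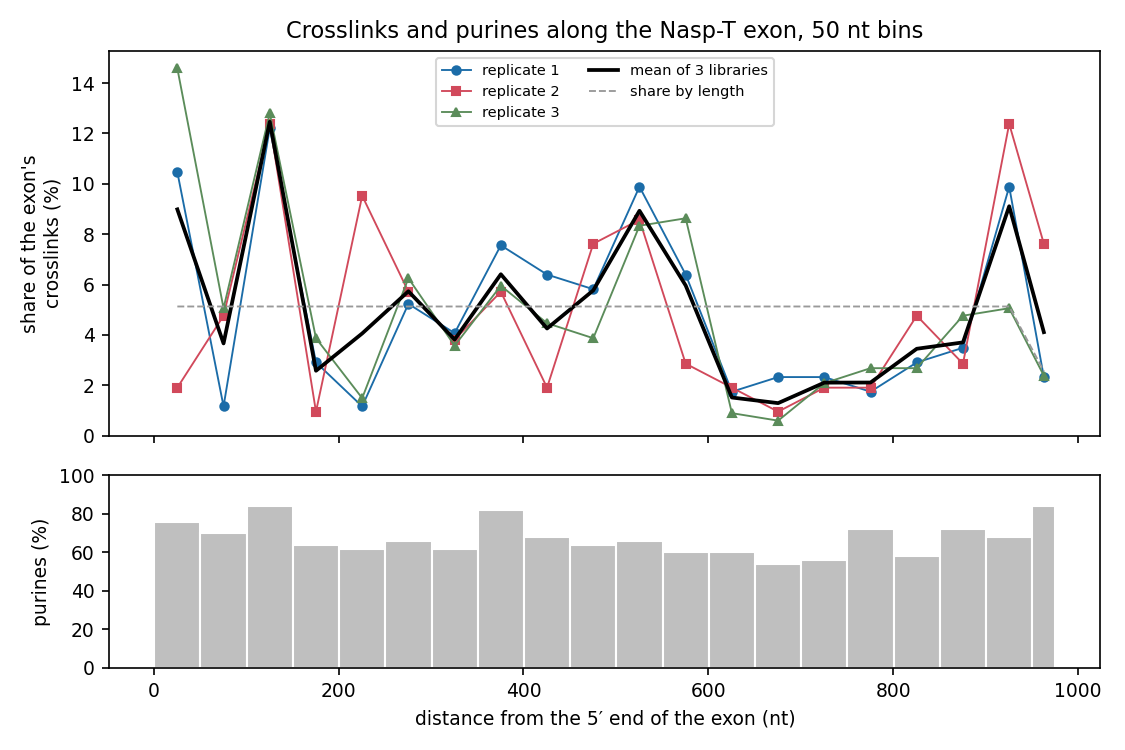
Share of the Nasp-T crosslinks in each 50 nt bin (upper panel, percent; thin lines for the 3 libraries, black line for the mean, dashed line for the share given by length) and purine share of the same bins (lower panel, percent), against the distance from the 5′ end of the exon in nt. Bin 3, at nt 101 to 150, lies between 12.2% and 12.8% in all 3 libraries, and the bins from nt 601 to 800 lie at or below 2.68%.

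The densest 41 nt, printed above, lie within bin 3 at nt 109 to 149 and held 19, 11 and 41 crosslinks, or 11.2% ± 0.9 of the exon (SD, n = 3). They are 85.4% purine and hold GAA 5 times. Among 72100 stretches of 41 nt cut from all long internal coding exons, 56.5% hold GAA on the transcribed strand and 0.413% hold it 5 or more times. Nasp-T as a whole is rich in GAA beside these exons, with 5.54 per 100 nt against a median of 2.14. The second densest stretch, nt 1 to 41 at the acceptor, held 16, 2 and 46 crosslinks and has GAA 3 times. The third, nt 501 to 541, held 17, 8 and 22 crosslinks, is 73.2% purine and has no GAA:
Nasp-T 41 nt without GAA, chr4:116468034-116468074: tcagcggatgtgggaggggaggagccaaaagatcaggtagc
The sparsest 41 nt, at nt 666 to 706, held 2, 0 and 0 crosslinks, are 48.8% purine and have no GAA. The second sparsest stretch, nt 781 to 821, held 2, 1 and 2 crosslinks, but is 70.7% purine and has GAA 2 times. The third, nt 601 to 641, held 3, 2 and 1 crosslinks, is 58.5% purine and has GAA 1 time. Without replicate 2 the densest stretch was nt 1 to 41 instead.

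The purine share of Nasp-T as a whole was 67.0%, and it was higher around its crosslinks. Over the 15 nt on each side of a crosslink it was 70.3%, 71.6% and 70.3% in replicates 1, 2 and 3, against 66.9% around all bases of the exon, so each library lay above the exon's own value. The mean was 70.7% ± 0.7 (SD, n = 3). In the shared exons it was 61.2% ± 3.0 around crosslinks against 54.2% around all bases. GAA lay within 15 nt of 87.9% ± 2.5 of the Nasp-T crosslinks, against 83.2% of all its bases, and of 74.98% ± 5.25 of those in shared exons, against 61.9% of all bases there. The GAA margin over all bases of the region was thus 4.73 percentage points in Nasp-T and 13.03 in the shared exons, a difference that was not tested. The margin in Nasp-T depended on the stretch looked at, since it was -1.19 percentage points within 5 nt and -0.026 within 30 nt of the crosslink. In the shared exons it was 12.1 within 5 nt and 6.46 within 30 nt. The shared exons were pooled here and include exons 1 and 15, which are sparse in crosslinks. These 2 exons hold 1.98 and 2.28 GAA per 100 nt and are 46.3% and 50.3% purine. The GAA and purine margins of the shared exons thus also depend on which exons were crosslinked, unlike those within Nasp-T.

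At the crosslinked nucleotide itself the base makeup of Nasp-T differed from its sequence. G stood at 48.2% ± 4.6 of crosslinks against 29.9% of the exon, U at 26.5% ± 1.5 against 16.9%, A at 17.5% ± 4.7 against 37.0% and C at 7.74% ± 0.26 against 16.1% (SD, n = 3). In the shared exons U led with 36.4% ± 2.0 against 27.3%. Ultraviolet crosslinking is known to favour some bases over others, so these shares describe the crosslink and not the binding site alone.

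Along the 19 full bins of Nasp-T the purine share and the number of crosslinks rose together (Spearman's rho 0.63), more so than the GAA count and the crosslinks (rho 0.37). The bins are parts of the same RNA in the same libraries, so these are descriptions. Between libraries the bin profiles of replicates 1 and 3 were the most alike (rho 0.79), and replicate 2 was less like either (rho 0.38 and 0.39). Over exons 2 to 14 the rho of purine share and mean density was 0.48. Exons 5 and 7 are 74.5% and 73.8% purine, but exon 14, at 72.1% purine with 8 GAA in 129 nt, had a log2 value of -0.31 from 12, 3 and 31 crosslinks and did not pass the test.

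The introns on both sides of Nasp-T were crosslinked more densely than the rest of the introns. Introns 5 and 6 together held 27, 24 and 44 crosslinks in 5233 nt, and the 12 other introns held 23, 20 and 40 in 18120 nt. The density was 5.16, 4.59 and 8.41 crosslinks per kb in the pair against 1.27, 1.10 and 2.21 elsewhere, so that the pair was higher in 3 of 3 libraries. Of the 14 introns, 9 had enough expected crosslinks for the test. Intron 5 held 9, 4 and 11 crosslinks in 594 nt (log2 2.57, edgeR adjusted p = 1.25e-05), and intron 6 held 18, 20 and 33 in 4639 nt (log2 1.42, edgeR adjusted p = 0.00239). They were called higher where 6.5% of 28040 introns were. Intron 3 held 4, 5 and 6 crosslinks in 4459 nt and was called lower (log2 -1.33, edgeR adjusted p = 0.044), as were 6.91% of introns.

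These counts were small, and each of the 3 intron calls was lost without replicate 1 and without replicate 2, settings in which at most 2 introns of any gene were called higher. Without replicate 3 the call was kept for intron 5 (adjusted p = 0.0157) and lost for introns 6 and 3 (0.0834 and 0.318; all edgeR). The call for intron 3 was also lost by DESeq2 (adjusted p = 0.182) and with no filter (edgeR adjusted p = 0.185). Part of intron 5 is exonic in another annotated transcript, Nasp-207, and these 505 nt held 7, 2 and 8 of its crosslinks. The remaining 89 nt held 2, 2 and 3. With every base that is exonic in any transcript taken out, a choice added after the data had been seen, intron 5 was too short to be tested and intron 6 was still higher (log2 1.75, edgeR adjusted p = 0.000154). Crosslinks in intron 6 were found along its length, with 4, 8 and 5 in its first 500 nt and 2, 3 and 1 in the 100 nt next to Nasp-T.

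**Figure D4:**
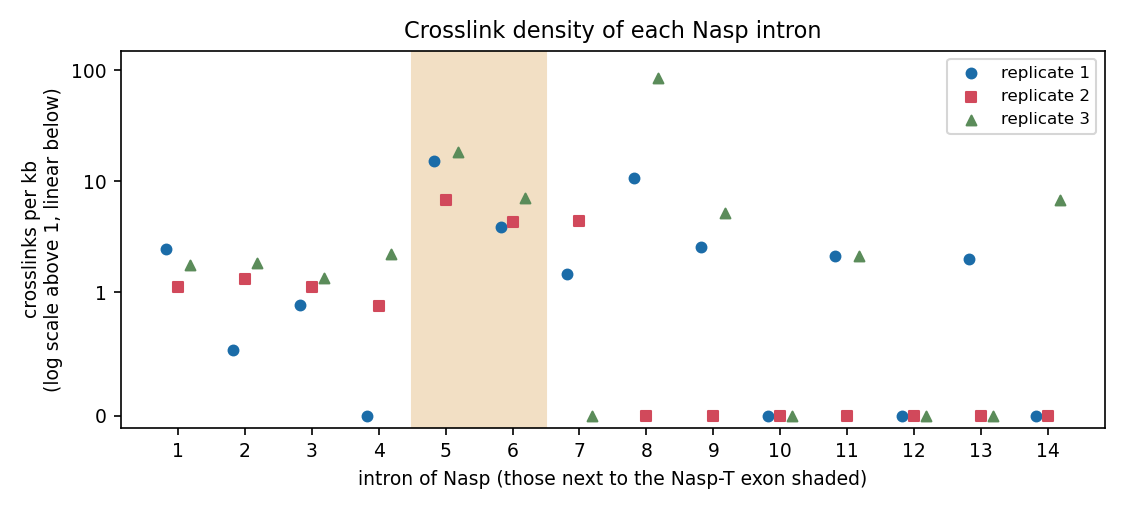
Crosslinks per kb in each of the 14 Nasp introns (vertical axis, logarithmic above 1 and linear below it), with symbols for the 3 libraries. Introns 5 and 6 (shaded), on both sides of the Nasp-T exon, reach 15.2, 6.73 and 18.5 and 3.88, 4.31 and 7.11 in replicates 1, 2 and 3, above introns 1 to 4 in each library; intron 8 is 94 nt long, and its high value in replicate 3 is 8 crosslinks.

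Nasp-T was set beside the 2663 internal coding exons of at least 500 nt in the genome, a comparison of levels per length that also depends on how much of each transcript was present. It had the highest mean density of them, at 507, 174 and 705 CPM per kb in replicates 1, 2 and 3, and ranked first in each library. The next were exon 14 of Ccdc136 at 176, 9.55 and 456, and exon 5 of Garin2 at 203, 16.7 and 360. All 3 exons were lowest in replicate 2, where Nasp-T stood farthest above them in ratio. Neither of those exons was called against the rest of its transcript (edgeR adjusted p = 0.885 and 0.107). The median over the 2663 exons was 0.937 CPM per kb, and 1106 of them had no crosslink. By sequence Nasp-T was near the top of the same exons, ranking 15 by purine share, where the median was 51.3%, and 14 by GAA density, with 5.54 per 100 nt against a median of 2.14.

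**Figure D5:**
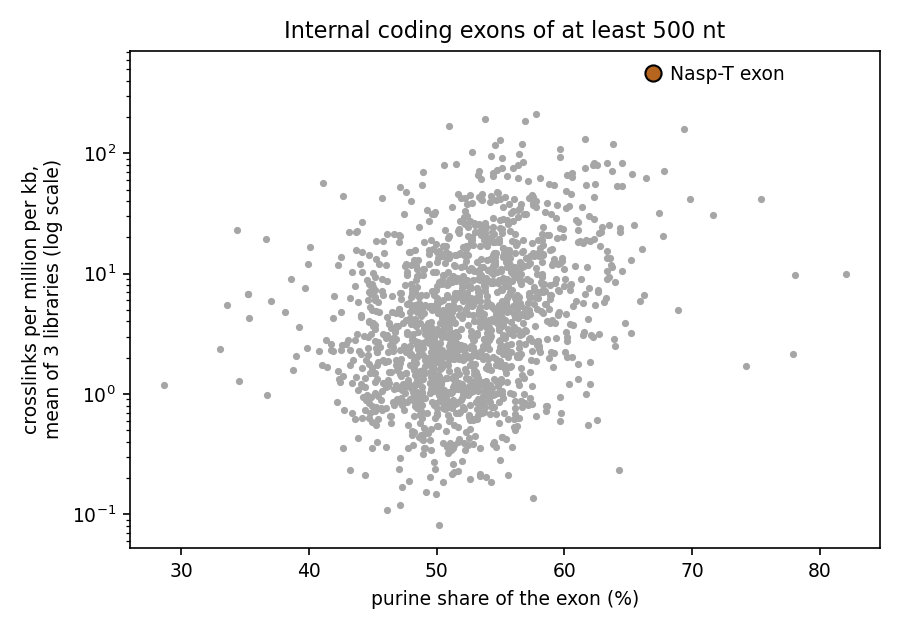
Mean CPM (crosslinks per 1000000 of the library) per kb over the 3 libraries (vertical axis, logarithmic) against the purine share of the exon in percent for internal coding exons of at least 500 nt; the 1106 exons without a crosslink cannot be drawn on this scale. The Nasp-T exon lies highest, at 462 CPM per kb and 67.0% purine.

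Other histone chaperone genes were crosslinked less. Nasp had the highest mean level when set beside a list of 35 such genes, whose median was 33.4 CPM. Of the 22 with enough crosslinks, 20 were called higher in exons than in introns and none lower, with a median log2 ratio of 3.19, where 80.4% of all genes tested were called higher. The 2 not called were Hjurp and Asf1b. The most crosslinked was Ubn2, a subunit of the HIRA complex that deposits histone H3.3, with 222, 239 and 253 crosslinks and a log2 ratio of 1.84 (edgeR adjusted p = 0.0159). Cdan1, which encodes an ASF1-binding protein, held 120, 140 and 155 crosslinks over the whole gene, of which 6.02% were exonic. Per nucleotide its exons were still denser than its introns, with a log2 ratio of 1.78 (edgeR adjusted p = 0.0134). Chaf1a, the large subunit of chromatin assembly factor 1, was most like Nasp in its log2 ratio, at 5.55 (edgeR adjusted p = 5.85e-06), with 31, 23 and 108 crosslinks. Supt6, which travels with RNA polymerase II, and Rsf1, a subunit of a chromatin remodelling complex, held 234 and 217 crosslinks in all, with log2 ratios of 4.14 and 3.36 (edgeR adjusted p = 1.37e-05 and 6.02e-05). Of 99 exons tested in 19 of these genes, 5 were called higher and 9 lower than the rest of their transcript, shares near the 5.65% and 8.3% of all exons tested. In Nasp it was 3 and 2 of 15.

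Among 965 protein-coding genes with at least 50 crosslinks in each library, those whose levels moved most like Nasp between the libraries were Dync1h1, Rb1cc1, Rdx, Gkap1 and Odf2. The distance was the root mean square difference of log2 CPM after centring each gene, and it lay between 0.0451 and 0.0515 over 3 libraries. Odf2, a component of the sperm outer dense fibres, had 359, 233 and 785 crosslinks and the level nearest to that of Nasp. The 5 genes were picked on their levels in these same 3 libraries.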

How the data were processed

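Per the file headers and the study's methods, the authors processed the iCLIP reads with the iMAPS pipeline against mm39 (GRCm39) and deposited, for each library, counts of unique cDNAs per nucleotide and strand. The submitters' processing notes name Trim Galore 0.6.7, Bowtie 1.3.1, STAR 2.7.9a and UMI-tools 1.1.2. How cDNAs matching several places were treated is not given in the sources used here. Of the crosslinked positions, 96.5% to 98.2% had 1 cDNA.

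From these counts, crosslinks were summed over the exons and introns of canonical GENCODE vM39 transcripts on the gene's strand. Each feature was tested against its reference (the other exons, the introns, the other introns, or the rest of a coding exon of at least 500 nt) with edgeR 4.0.16 (quasi-likelihood test), with the library as a block, log lengths as offsets and Benjamini-Hochberg adjustment over all features tested, called at adjusted p under 0.05. For the exon tests a gene had at least 20 exonic crosslinks over all libraries. For the gene and intron tests it had at least 20 in exons and introns together. Bins were tested in exons with at least 20 crosslinks. The expected count of a feature, as a mean over the libraries, was at least 1. Library values of a log2 difference use a pseudocount of 0.5. The fit was tested on simulated counts. Alternatives were leaving out each replicate, DESeq2 1.42.0, an exact binomial test per library (scipy 1.17.1), filters, references, exon ends, bin and window sizes, and positions counted 1 time each. Copies of exons were sought with BLAST+ 2.17.0. The named genes were Nasp, the 5 genes nearest in profile over the libraries and the long exons next to Nasp-T in density. From a histone chaperone list, the 5 most crosslinked members were named, and the 2 that were tested in exons against introns but not called. The members and lists were chosen with earlier results of these data known. The edgeR and DESeq2 p-values measure the spread among 3 libraries, estimated in part from all features tested. The exact binomial p-values cover counting error alone.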

Additional observations from a re-analysis of the deposited data

Results flagged for a closer look

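Crosslinks on the strand opposite to Nasp were outside the comparisons above. Replicate 2 had 9 of them over the length of the gene, above the limit of 3 that a count of 0 allows, and replicates 1 and 3 had 0. Of the 9, 7 lay opposite exon 1 and none opposite the Nasp-T exon. Replicate 2 also had the largest number of crosslinks in all (619571) and the lowest share of them in genes on their own strand (74.1%, against 85.3% and 87.7%), and the part of either in this count was not tested.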

How the results depend on the processing

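The excess of GAA around Nasp-T crosslinks, 4.73 percentage points within 15 nt, changed sign to -1.19 within 5 nt and -0.026 within 30 nt, settings added after the data had been seen. No other result changed direction under the alternatives. The excess of exons over introns in Nasp passed the test under all of them, with log2 ratios from 5.31 to 5.84 when a replicate was left out. The Nasp-T exon kept its call under the others but lost it with internal exons as the reference (log2 0.29) and without replicate 1 or 3, the log2 value ranging from 0.95 to 1.24 over the left-out replicates. The number of Nasp exons called, 5 in all, ranged from 1 to 7 with a replicate left out and was 0 with internal exons as the reference. The number of introns called, 3 in all, ranged from 0 to 1 with a replicate left out, was 1 with bases exonic in any transcript taken out, and was 0 by the exact binomial test. The number of Nasp-T bins called, 3 in all, ranged from 0 to 5 with a replicate left out. It was 5 with at least 5 expected crosslinks, 1 by DESeq2 and 0 by the exact binomial test. With no filter it was 2, and bin 13 lost its call (edgeR adjusted p = 0.0755). With bins of 100 nt 0 were called higher and 2 lower, and with bins of 25 nt 1 was called higher and 3 lower. The purine share around Nasp-T crosslinks was 69.5% with 5 nt on each side. The hottest stretch held 6.59% of the exon's crosslinks at 21 nt and 15.2% at 81 nt. Counts per bin or intron were often under 10, which limits what could be called.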
